A study of Mus musculus with 24 samples.

Results

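The 6 genes described here encode components of the Notch pathway in cultured mouse epidermal progenitors: the ligands *Jag1* and *Jag2*, the receptors *Notch1*, *Notch2* and *Notch3*, and *Hes1*, a transcriptional repressor that is a known target of activated Notch. They were picked by symbol, and all 6 of the 6 named were found among the 10818 genes measured. The cells were primary wild-type keratinocyte progenitors established from newborn mice on 3T3-J2 fibroblast feeders and infected with lentivirus. There were 8 groups of 3 libraries. In the silencing experiment cells carried *shId1*, a short hairpin RNA against *Id1*, or the scrambled control *shScr*, and were taken after 24 h in high calcium, which starts keratinocyte differentiation, and at 0 h. In the overexpression experiment all cells carried inducible ID1 and were taken at the same times with doxycycline for 3 days (+dox) or without it (-dox). ID1 binds basic helix-loop-helix transcription factors and keeps them off DNA. No control culture received doxycycline without the ID1 construct, and no group spent 24 h in low calcium, so an effect of ID1 cannot be told apart from one of doxycycline, nor an effect of calcium from one of time. The labels call the 3 libraries of a group biological replicates and do not say whether they come from separate cultures, so p-values measure the spread between these libraries.

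Notch receptors are cleaved when a ligand on a neighbouring cell binds them, and the freed intracellular part enters the nucleus, where it joins the DNA-binding protein RBPJ and turns on genes such as *Hes1*. In the epidermis this signal is known to promote the step from the basal to the spinous layer. Jagged ligands and Notch receptors are found in different layers of stratified epithelia. HES1 is itself a basic helix-loop-helix protein.

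All values are the authors' counts per library size (CPM) after TMM scaling, a correction for library composition, and are not divided by gene length. Log2 fold changes are on the log2(value + 0.5) scale with their standard error (SE), and a gene passed when its limma p, adjusted over all genes tested, was under 0.05. Values of a group are given in the order of replicates 1, 2 and 3. The table held 21442371 to 35720140 reads per library, and libraries of a group correlated with r of 0.976 to 0.996. All 8 basal keratinocyte markers listed were found, with a summed level of 25569 to 61174, and 6 of 8 suprabasal markers. Of 12 fibroblast and feeder genes only *Postn* is in the table, with *Kdr* of 6 endothelial, *Cd68* of 6 leukocyte and *Pmel* and *Mitf* of 6 melanocyte genes, and the others were not analysed here. Mitochondrial genes took 0.838 to 1.33% of the summed values in +dox and -dox libraries at 24 h and 2.16 to 3.47% in the others, and the part of this in the calcium results was not tested. In the silencing experiment the libraries numbered 1 correlated less with the others of their group (r of 0.976 to 0.990) than those numbered 2 and 3 with each other (0.993 to 0.996), so results of that experiment are also given without them where this changes a call. In the overexpression experiment +dox replicate 3 at 24 h had r of 0.983 and 0.989 with replicates 1 and 2, against 0.995 between those. *Id1*, the targeted gene, was 25.7, 19.7 and 39.0 in *shId1* cells at 0 h, against 60.7, 103 and 111 in *shScr* cells (log2 fold change -1.69 ± 0.38, adjusted p = 0.0183). At 24 h it was 17.6, 40.1 and 29.7 in *shId1* cells, against 27.9, 44.8 and 69.6 in *shScr* cells, which did not pass (-0.67 ± 0.38, adjusted p = 0.265). In +dox cells at 0 h *Id1* was 41.6, 107 and 73.0, against 10.5, 13.2 and 7.15 in -dox cells (2.72 ± 0.27, adjusted p = 2.51e-06). At 24 h it was 106, 96.0 and 76.1 in +dox cells, against 73.9, 67.5 and 59.7 in -dox cells, and this difference did not pass (0.46 ± 0.27, adjusted p = 0.232). In -dox cells *Id1* had risen from 0 h to 24 h (2.68 ± 0.27, adjusted p = 2.73e-07). Below, "with ID1" stands for +dox against -dox cells, whatever their *Id1* level. Likewise, "with calcium" and "calcium response" stand for 24 h in high calcium against 0 h, whatever the part of time.

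The genes lie on 5 chromosomes (GRCm38, GENCODE M21). *Notch1* (ENSMUSG00000026923) spans bases 26457903 to 26516663 and *Jag1* (ENSMUSG00000027276) bases 137081456 to 137116644 of chromosome 2, both on the minus strand. *Notch2* (ENSMUSG00000027878) spans bases 98013527 to 98150361 of chromosome 3, plus strand. *Jag2* (ENSMUSG00000002799) spans bases 112907819 to 112929776 of chromosome 12, minus strand. *Hes1* (ENSMUSG00000022528) spans bases 30064384 to 30067796 of chromosome 16, plus strand. *Notch3* (ENSMUSG00000038146) spans bases 32120820 to 32166852 of chromosome 17, minus strand. Genes on the opposite strand overlap the downstream end of *Notch1* (0610009E02Rik and Gm13568) and part of *Notch3* (Gm17276). The libraries were stranded, but no source used here states whether the counting kept strand, and reads from these partners cannot be told apart from those of the 2 receptors.

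Promoter windows from RefSeq (GRCm38.p6, 250 bases before the start to 50 after it) were at hand for 5 of the 6 genes. They were searched on both strands for the E-box, CANNTG, the site of basic helix-loop-helix proteins that ID1 restrains, and for the core of the RBPJ site, TGGGAA, which reads as TTCCCA on the opposite strand. An E-box was found in the window of *Jag1* alone, and the RBPJ core in none of the 5, so no matches overlap. Of 32851 windows of the same length, 72.3% held an E-box and 25.6% the RBPJ core. The E-box of *Jag1* lies 82 bases before the RefSeq start, within the longer gene drawn by GENCODE. It is shown with its flanks, in capitals, because *Jag1* was the ligand that differed most with ID1 at 24 h. The 250 bases before the *Notch3* start are shown because *Notch3* was the 1 gene of the 6 whose rise with calcium passed in all 4 cultures in the main fit. They hold neither motif.
*Jag1*, chr2:137116585-137116614, minus strand: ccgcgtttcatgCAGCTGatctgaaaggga
*Notch3*, chr17:32166891-32167140, minus strand: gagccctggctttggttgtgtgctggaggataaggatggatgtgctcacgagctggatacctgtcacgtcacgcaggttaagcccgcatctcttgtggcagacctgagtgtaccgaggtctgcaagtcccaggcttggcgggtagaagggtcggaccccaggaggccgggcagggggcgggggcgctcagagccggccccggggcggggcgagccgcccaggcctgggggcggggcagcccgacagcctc
A match is a description of the letters only, and the lack of a match says only that these letters are not in the window.

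All 6 genes were detected in every library. Over the 24 libraries *Notch1* ran from 118 to 483 (median 328), *Jag2* from 87.3 to 263 (median 140.0), *Jag1* from 62.2 to 225 (median 96.6), *Notch2* from 51.7 to 163 (median 78.9), *Notch3* from 23.7 to 130.0 (median 47.8) and *Hes1* from 28.4 to 69.4 (median 42.4). *Notch3* had the widest range, 5.49-fold from lowest to highest, and *Hes1* the narrowest, 2.44-fold. Fewer cells expressing a gene and less of its RNA per cell cannot be told apart in these bulk libraries.

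**Figure D1:**
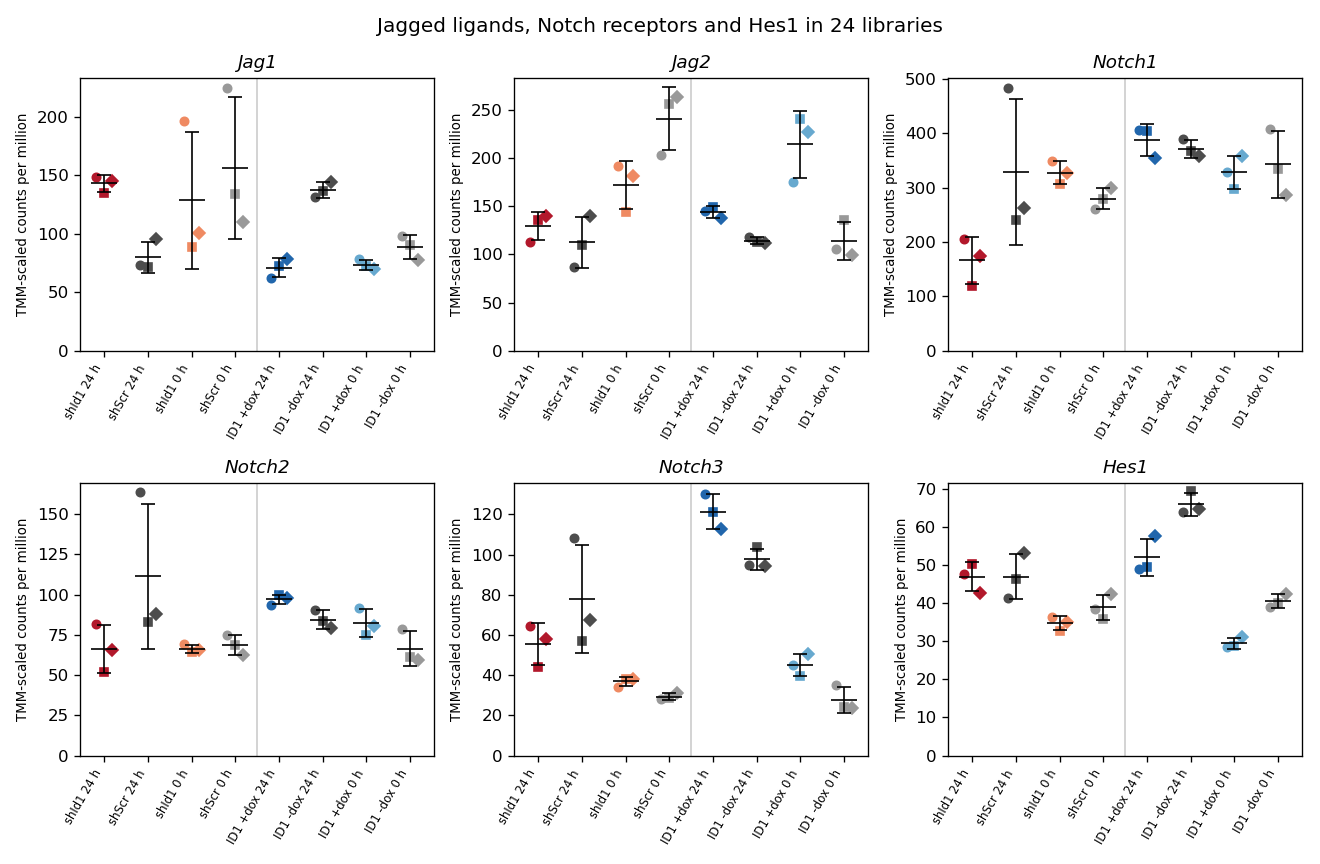
Each panel shows 1 gene, with TMM-scaled CPM on the y axis and the 8 groups on the x axis. Circles, squares and diamonds are replicates 1, 2 and 3, and the black bar and whiskers are mean ± SD (n = 3). *Notch3* is higher at 24 h than at 0 h in all 4 cultures, and *shScr* replicate 1 at 24 h lies above the others of its group for the 3 receptors.

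To compare genes with each other, values were divided by the length of the exons in kb. At 0 h *Jag2* was the highest of the 6 in *shId1* cells (24.7 ± 3.64 per kb, SD, n = 3), *shScr* cells (34.6 ± 4.67) and +dox cells (30.8 ± 4.99), and *Notch1* in -dox cells (24.1 ± 4.33). At 24 h the highest mean was that of *Jag1* in *shId1* cells (24.6 ± 1.21), *Notch1* in *shScr* cells (23.1 ± 9.43) and +dox cells (27.3 ± 2.09), and *Hes1* in -dox cells (32.4 ± 1.47). In *shScr* cells *Hes1* was level with *Notch1* (23.1 ± 2.89). The *Notch1* mean there was raised by replicate 1, at 483 against 239.8 and 263 before division by length. *Notch2* and *Notch3* had the 2 lowest means in all groups except +dox cells at 24 h, where *Notch3* stood above *Jag1*, at 15.0 ± 1.07 against 12.2 ± 1.38 per kb.

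The ligands differed between +dox and -dox cells in opposite directions, *Jag2* mostly before calcium and *Jag1* mostly after it. *Jag2* was 175, 241 and 228 in +dox cells at 0 h, against 106, 136 and 99.9 in -dox cells. Every +dox library lay above every -dox library, and the rise passed (log2 fold change 0.91 ± 0.12, adjusted p = 4.87e-05, 1.88-fold). *Jag1* was 62.2, 72.3 and 78.1 in +dox cells at 24 h, against 131, 137 and 145 in -dox cells. The groups were far apart, and *Jag1* fell with ID1 (-0.96 ± 0.10, adjusted p = 2.88e-05, to 0.515 of the -dox level). At the other time the difference of each ligand had the same sign and did not pass. *Jag1* at 0 h was 78.3, 72.4 and 70.0 in +dox cells, against 97.9, 90.1 and 77.9 in -dox cells, with values that overlap slightly (-0.26 ± 0.10, adjusted p = 0.0597). *Jag2* at 24 h was 145, 149.7 and 138 in +dox cells, against 118, 113 and 111 in -dox cells, with no overlap (0.34 ± 0.12, adjusted p = 0.0628).

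The interaction of doxycycline and time passed for both ligands. For *Jag1* it was -0.70 ± 0.14 (adjusted p = 0.00573), and for *Jag2* -0.58 ± 0.17 (adjusted p = 0.0464), beside 10.5% of all genes tested that passed. The interaction of *Jag2* did not pass when any of 9 libraries was left out (adjusted p 0.0550 to 0.136), and that of neither ligand passed in a fit of all 24 libraries (0.205 for *Jag1* and 0.126 for *Jag2*). The ratio of *Jag2* to *Jag1*, both per kb, shows the 2 changes together. It was 1.87, 2.78 and 2.72 in +dox cells at 0 h, against 0.904, 1.26 and 1.07 in -dox cells. At 24 h it was 1.95, 1.73 and 1.48 in +dox cells, against 0.755, 0.689 and 0.644 in -dox cells. All +dox libraries thus held more *Jag2* than *Jag1* per kb, at both times, and all -dox libraries at 24 h held less.

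**Figure D2:**
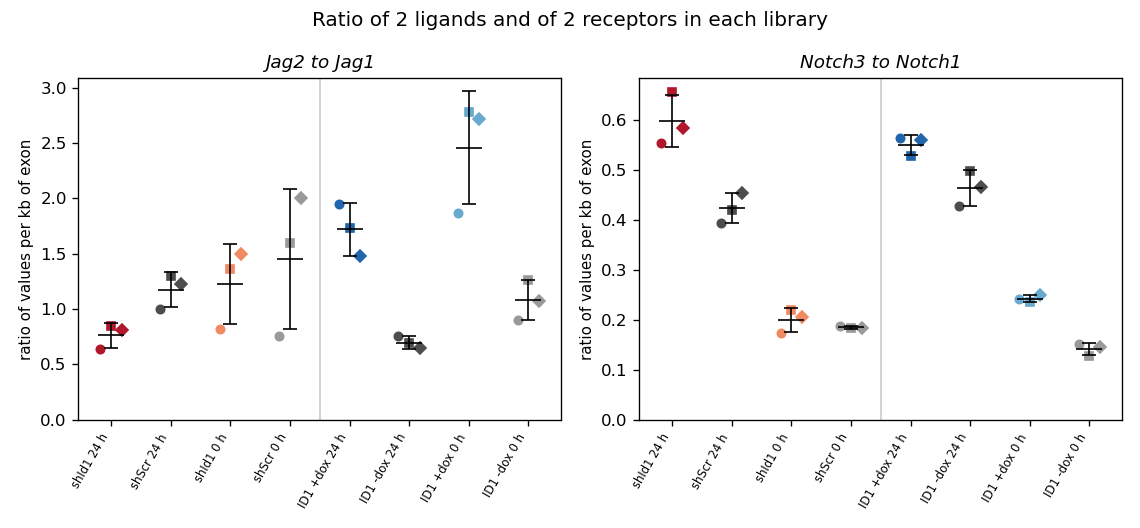
The y axes give the ratio of *Jag2* to *Jag1* (left) and of *Notch3* to *Notch1* (right) in each library, from values per kb of exon, and the x axes the 8 groups. Symbols are replicates 1 to 3 and whiskers are mean ± SD (n = 3). The ligand ratio is above 1.4 in all 6 +dox libraries, and the receptor ratio is higher at 24 h than at 0 h in every culture.

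Among the receptors *Notch3* and *Notch2* were higher with ID1 before calcium. *Notch3* was 45.0, 39.8 and 50.7 in +dox cells at 0 h, against 35.0, 24.3 and 23.7 in -dox cells. The groups did not overlap and the rise passed (0.71 ± 0.13, adjusted p = 0.000796). *Notch2* was 92.0, 75.1 and 80.4 in +dox cells, against 78.7, 61.4 and 59.3 in -dox cells (0.32 ± 0.11, adjusted p = 0.0359). The *Notch2* values overlap, and without -dox replicate 2 or 3 or +dox replicate 1 or 3 the gene did not pass (adjusted p 0.124, 0.164, 0.153 and 0.0742). *Notch1*, the receptor best known for promoting differentiation in mouse epidermis, was 328, 298 and 359 in +dox cells, against 408, 334 and 286 in -dox cells (-0.05 ± 0.11, adjusted p = 0.760). No receptor passed at 24 h. *Notch3* was then 130.0, 121 and 113 in +dox cells, against 94.7, 104 and 94.4 in -dox cells, without overlap (0.31 ± 0.13, adjusted p = 0.108). *Notch2* was 93.6, 99.5 and 97.9 in +dox cells, against 90.5, 83.9 and 79.0 in -dox cells (0.20 ± 0.11, adjusted p = 0.203). *Notch1* was 406, 404 and 354 in +dox cells, against 390.3, 367 and 358 in -dox cells (0.06 ± 0.11, adjusted p = 0.743).

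*Hes1* was lower with ID1 at both times. At 0 h it was 28.4, 28.9 and 31.1 in +dox cells, against 38.9, 40.0 and 42.5 in -dox cells (-0.45 ± 0.09, adjusted p = 0.00129). At 24 h it was 49.0, 49.5 and 57.6 in +dox cells, against 63.9, 69.4 and 64.6 in -dox cells (-0.34 ± 0.09, adjusted p = 0.0138). The groups did not overlap at either time. The fall at 24 h did not pass without +dox replicate 2 (adjusted p = 0.0668) or -dox replicate 2 (0.0642). *Hes1* thus fell while *Notch3* rose at 0 h. The 6 suprabasal markers summed to 1327 to 1408 in +dox cells at 24 h, against 1868 to 2145 in -dox cells, and at 0 h to 567 to 628 in +dox cells, against 840 to 1027 in -dox cells. Of these 6, 4 fell at 0 h and 5 at 24 h, beside 13.8% and 10.9% of all genes, and their part in the results for *Jag1*, *Jag2*, *Notch3* and *Hes1* was not tested.

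With ID1, 4 of the 6 genes passed at 0 h, 3 higher and 1 lower, where 34.3% of all genes passed (20.5% higher and 13.8% lower). At 24 h 2 passed, both lower, where 21.6% of all genes passed (10.6% higher and 10.9% lower). None of these changes reached 2-fold.

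**Figure D3:**
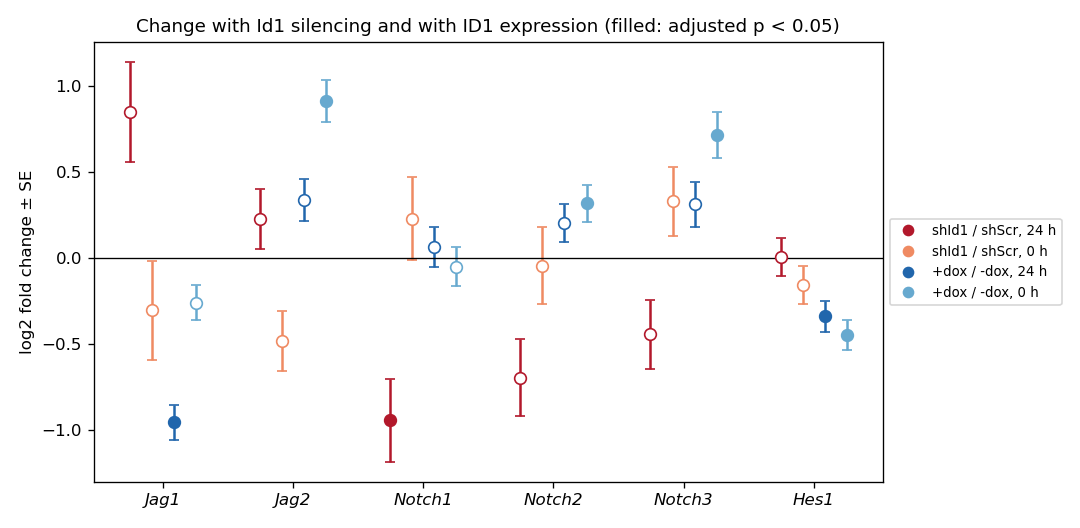
The y axis gives the log2 fold change ± SE of each gene with *Id1* silencing (*shId1* over *shScr*) and with ID1 expression (+dox over -dox) at 24 h and 0 h, from 3 libraries a group. Filled points passed at an adjusted p under 0.05. *Jag1* at 24 h lies at 0.85 with silencing (open) and at -0.96 with ID1 expression (filled).

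With silencing of *Id1* none of the 6 genes passed at 0 h with limma, where 7.47% of all genes passed (4.03% higher and 3.44% lower). An unadjusted p under 0.05 was found for 1 of the 6 and for 22.4% of all genes, and edgeR on recovered reads called 2 of the 6 and 16.1% of all genes. *Jag2* was 192, 144 and 181 in *shId1* cells, against 204, 256 and 263 in *shScr* cells, all *shId1* libraries being lower (-0.49 ± 0.17, adjusted p = 0.116). *Notch3* was 34.2, 38.3 and 38.3 in *shId1* cells, against 27.9, 28.8 and 31.2 in *shScr* cells, all *shId1* libraries being higher (0.33 ± 0.20, adjusted p = 0.376). *Notch1* was also higher in each, with 348, 307 and 327 in *shId1* cells, against 262, 278 and 299 in *shScr* cells (0.23 ± 0.24, adjusted p = 0.644). The *shId1* and *shScr* libraries numbered 1 deviated together from their group means (r of 0.707 at 0 h and 0.709 at 24 h). Those numbered 2 and 3 were not clearly paired. At 0 h *shId1* replicate 2 had r of 0.542 with *shScr* replicate 3, against 0.179 with replicate 2. With the replicate number as a block within each time, *Jag2* (adjusted p = 0.0217) and *Notch3* (adjusted p = 0.0332) passed at 0 h, where 21.8% of all genes passed in that fit. Without the libraries numbered 1 *Jag2* passed (-0.69, adjusted p = 0.00528) and *Notch3* did not (0.35, adjusted p = 0.0957), where 15.1% of all genes passed. Of the 6 suprabasal markers 3 were higher and 0 lower in *shId1* cells at 0 h, with a summed level of 540 to 780 in *shId1* cells, against 597 to 757 in *shScr* cells, and their part in these results was not tested.

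*Jag1*, *Notch2* and *Hes1* showed no difference past the test at 0 h under any of these 3 fits. *Jag1* was 196, 88.6 and 101 in *shId1* cells, against 225, 134 and 110.0 in *shScr* cells (-0.31 ± 0.29, adjusted p = 0.592), with the libraries numbered 1 far above the others in each group. *Notch2* was 69.2, 64.1 and 65.6 in *shId1* cells, against 75.0, 68.5 and 62.7 in *shScr* cells (-0.05 ± 0.22, adjusted p = 0.932). *Hes1* was 36.4, 32.8 and 34.9 in *shId1* cells, against 38.5, 35.8 and 42.4 in *shScr* cells (-0.16 ± 0.11, adjusted p = 0.436).

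At 24 h *Notch1* was the single gene of the 6 that passed with silencing, where 14.6% of all genes passed (7.90% higher and 6.72% lower). It was 205, 118 and 175 in *shId1* cells, against 483, 239.8 and 263 in *shScr* cells (-0.95 ± 0.24, adjusted p = 0.0207). The groups did not overlap, and the highest value came from *shScr* replicate 1. *Notch1* still passed without the libraries numbered 1 (-0.80, adjusted p = 0.00489) but not without *shId1* replicate 2 (-0.72, adjusted p = 0.0756) or in a fit of these 2 groups alone (adjusted p = 0.107). *Notch2* was 81.7, 51.7 and 65.5 in *shId1* cells, against 163, 83.2 and 87.9 in *shScr* cells (-0.70 ± 0.22, adjusted p = 0.0562). *Notch3* was 64.4, 44.0 and 57.9 in *shId1* cells, against 108, 57.2 and 67.7 in *shScr* cells, with values that overlap (-0.45 ± 0.20, adjusted p = 0.157). *Notch2*, like *Notch1*, did not overlap between the groups. The 3 receptors varied together within groups (r of 0.830 to 0.920), so these are not 3 independent results.

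*Jag1* was 149, 135 and 145 in *shId1* cells at 24 h, against 73.4, 71.2 and 95.3 in *shScr* cells (0.85 ± 0.29, adjusted p = 0.0697, 1.80-fold). Every *shId1* library lay above every *shScr* library. With the replicate block within each time *Jag1* (adjusted p = 0.000216), *Notch2* (0.000459) and *Notch3* (0.00542) passed as well as *Notch1* (0.000219), making 4 of the 6, where 30.3% of all genes passed in that fit. Without the libraries numbered 1 *Jag1* (0.76, adjusted p = 0.00385) and *Notch2* (-0.55, adjusted p = 0.00498) passed beside *Notch1*, and *Notch3* did not (-0.30, adjusted p = 0.130), where 21% of all genes passed. Without *shScr* replicate 1 at 24 h alone *Notch3* was -0.18 (adjusted p = 0.494). *Jag2* was 113, 136 and 140.0 in *shId1* cells, against 87.3, 110.2 and 140.1 in *shScr* cells (0.22 ± 0.17, adjusted p = 0.435). *Hes1* was 47.8, 50.4 and 42.7 in *shId1* cells, against 41.4, 46.4 and 53.1 in *shScr* cells (0.00 ± 0.11, adjusted p = 0.985). *Postn*, the fibroblast gene measured, was 5.37 to 6.65 in *shId1* cells at 24 h, against 20.4 to 32.9 in *shScr* cells, and its part was not tested.

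The effect of silencing at 24 h was compared with that at 0 h by the interaction of hairpin and time. None of the 6 passed, where 7.51% of all genes passed, with values from -1.17 ± 0.34 for *Notch1* (adjusted p = 0.0571) to 1.15 ± 0.41 for *Jag1* (adjusted p = 0.112). An unadjusted p under 0.05 was found for 4 of the 6 and for 22.6% of all genes. With edgeR, which had a single *shId1* library at 24 h, 3 of the 6 and 6.11% of all genes passed. With the replicate block within each time, where 20.5% of all genes passed, all but *Hes1* passed, *Notch1* (adjusted p = 0.000913), *Notch2* (0.00772) and *Notch3* (0.00300) downwards and *Jag1* (0.000580) and *Jag2* (0.0188) upwards. The same 5 passed without the libraries numbered 1, where 13.9% of all genes passed.

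Among the receptors *Notch3* rose with calcium in all 4 cultures. In -dox cells it was 94.7, 104 and 94.4 at 24 h, against 35.0, 24.3 and 23.7 at 0 h (1.82 ± 0.13, adjusted p = 9.55e-09, 3.54-fold). In +dox cells it was 130.0, 121 and 113 at 24 h, against 45.0, 39.8 and 50.7 at 0 h (1.42 ± 0.13, adjusted p = 2.42e-07). *Notch3* in *shScr* cells was 108, 57.2 and 67.7 at 24 h, against 27.9, 28.8 and 31.2 at 0 h (1.34 ± 0.20, adjusted p = 0.000107). The lowest fold change was that of *shId1* cells, with 64.4, 44.0 and 57.9 at 24 h, against 34.2, 38.3 and 38.3 at 0 h (0.56 ± 0.20, adjusted p = 0.0288). No 24 h library overlapped a 0 h library of its culture. The rise in *shId1* cells did not pass when any of 5 *shId1* libraries, all but replicate 2 at 24 h, was left out (adjusted p 0.0529 to 0.0916). With edgeR, which had a single *shId1* library at 24 h, that rise was 0.20.

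*Notch2* rose in 2 of the 4 cultures. It was 90.5, 83.9 and 79.0 in -dox cells at 24 h, against 78.7, 61.4 and 59.3 at 0 h (0.35 ± 0.11, adjusted p = 0.00842), and without -dox replicate 3 at 0 h it did not pass (adjusted p = 0.0504). In *shScr* cells it was 163, 83.2 and 87.9 at 24 h, against 75.0, 68.5 and 62.7 at 0 h (0.63 ± 0.22, adjusted p = 0.0291). That rise did not pass without *shScr* replicate 1 at 24 h (0.32, adjusted p = 0.0960) or replicate 2 or 3 at 0 h (adjusted p 0.0656 and 0.0837), and it passed without all libraries numbered 1 (0.38, adjusted p = 0.00924) and with edgeR (0.32, adjusted p = 0.0120). *Notch2* did not pass in +dox cells (0.24 ± 0.11, adjusted p = 0.0603) or *shId1* cells (-0.02 ± 0.22, adjusted p = 0.933).

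*Notch1* fell with calcium in *shId1* cells, where it was 205, 118 and 175 at 24 h, against 348, 307 and 327 at 0 h (-1.01 ± 0.24, adjusted p = 0.00338). The 2 times did not overlap, and the fall passed in each of the alternative fits. In the other 3 cultures *Notch1* overlapped between times and did not pass: 0.16 ± 0.24 in *shScr* cells (adjusted p = 0.580), 0.24 ± 0.11 in +dox cells (adjusted p = 0.0671) and 0.13 ± 0.11 in -dox cells (adjusted p = 0.310). Per kb the ratio of *Notch3* to *Notch1* was 0.394 to 0.656 over the 12 libraries at 24 h, against 0.128 to 0.249 over the 12 at 0 h, so in no culture did the times overlap.

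**Figure D4:**
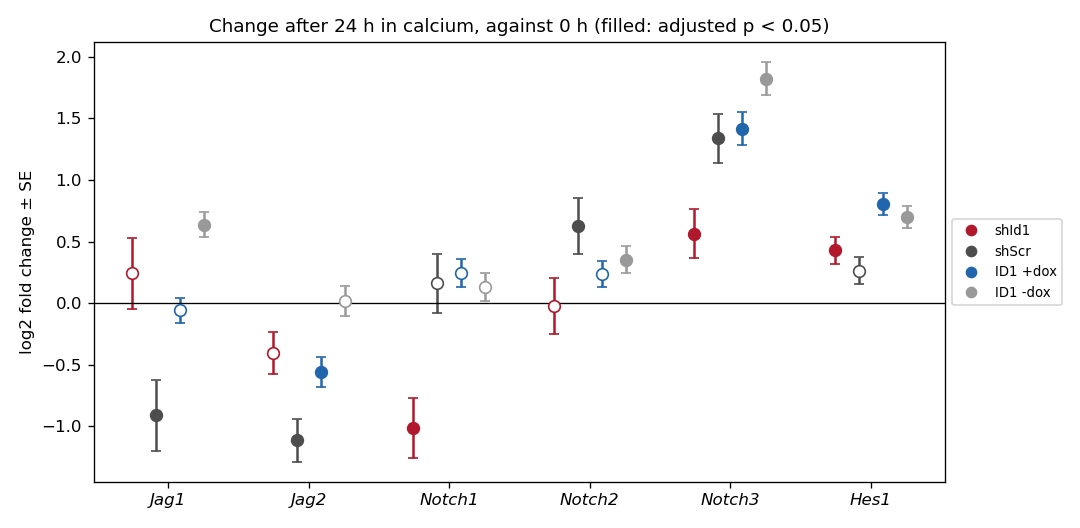
The y axis gives the log2 fold change ± SE of each gene after 24 h in calcium, against 0 h, in *shId1*, *shScr*, ID1 +dox and ID1 -dox cells, from 3 libraries a group. Filled points passed at an adjusted p under 0.05. *Notch3* is above 0 in all 4 cultures, while *Jag1* is at 0.64 in -dox cells and -0.91 in *shScr* cells.

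*Hes1* rose with calcium in 3 of the 4 cultures. It was 63.9, 69.4 and 64.6 in -dox cells at 24 h, against 38.9, 40.0 and 42.5 at 0 h (0.70 ± 0.09, adjusted p = 4.04e-06). *Hes1* in +dox cells was 49.0, 49.5 and 57.6 at 24 h, against 28.4, 28.9 and 31.1 at 0 h (0.81 ± 0.09, adjusted p = 1.27e-06). In *shId1* cells it was 47.8, 50.4 and 42.7 at 24 h, against 36.4, 32.8 and 34.9 at 0 h (0.43 ± 0.11, adjusted p = 0.00530). In *shScr* cells *Hes1* was 41.4, 46.4 and 53.1 at 24 h, against 38.5, 35.8 and 42.4 at 0 h, with values that overlap (0.26 ± 0.11, adjusted p = 0.0532). Without the libraries numbered 1 *Hes1* passed in *shScr* cells too (0.35, adjusted p = 0.0223), where 67.1% of all genes passed, as it did with edgeR (0.35, adjusted p = 0.0128). The interaction of treatment and time did not pass for *Hes1* in either experiment (0.16 ± 0.15, adjusted p = 0.606, with silencing, and 0.11 ± 0.13, adjusted p = 0.651, with ID1).

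Both ligands fell with calcium in *shScr* cells, but neither passed in every culture. *Jag2* fell in *shScr* cells, where it was 87.3, 110.2 and 140.1 at 24 h, against 204, 256 and 263 at 0 h (-1.11 ± 0.17, adjusted p = 0.000144). It also fell in +dox cells, with 145, 149.7 and 138 at 24 h, against 175, 241 and 228 at 0 h (-0.56 ± 0.12, adjusted p = 0.000753). With edgeR, which had a single +dox library at 0 h, the change in +dox cells was -0.28. In *shId1* cells *Jag2* was 113, 136 and 140.0 at 24 h, against 192, 144 and 181 at 0 h, with no overlap (-0.40 ± 0.17, adjusted p = 0.0624). In -dox cells it was 118, 113 and 111 at 24 h, against 106, 136 and 99.9 at 0 h (0.02 ± 0.12, adjusted p = 0.913). With the shared replicate block the fall in *shId1* cells passed too (adjusted p = 0.0283). The cultures whose fall passed in the main fit had the 2 highest *Jag2* means at 0 h, 241 in *shScr* and 215 in +dox cells. These 0 h values enter the fold changes themselves, so no link between the 2 can be read from them.

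*Jag1* moved in opposite directions in the 2 control cultures. In -dox cells it was 131, 137 and 145 at 24 h, against 97.9, 90.1 and 77.9 at 0 h (0.64 ± 0.10, adjusted p = 4.01e-05). In *shScr* cells it was 73.4, 71.2 and 95.3 at 24 h, against 225, 134 and 110.0 at 0 h (-0.91 ± 0.29, adjusted p = 0.0163). The fall in *shScr* cells did not pass without *shScr* replicate 1 at 0 h (-0.61, adjusted p = 0.0779) or replicate 2 at 24 h (-0.83, adjusted p = 0.0559), and it passed without the libraries numbered 1 (-0.56, adjusted p = 0.00467). *Jag1* did not pass in +dox cells (-0.06 ± 0.10, adjusted p = 0.613). In *shId1* cells it did not pass with all libraries (0.24 ± 0.29, adjusted p = 0.492) and was higher at 24 h without those numbered 1 (0.56, adjusted p = 0.00465), where 65.0% of all genes passed. In a fit of all 24 libraries, a comparison added after the data were seen, the calcium response of -dox minus that of *shScr* cells was 1.55 ± 0.32 for *Jag1* (adjusted p = 0.000401), 1.13 ± 0.22 for *Jag2* (adjusted p = 0.000251) and 0.43 ± 0.14 for *Hes1* (adjusted p = 0.0113), where 52.8% of all genes passed. The fibroblast gene *Postn* also differed in direction between these cultures, at -2.10 ± 0.19 in -dox cells (adjusted p = 9.84e-08) and 1.07 ± 0.36 in *shScr* cells (adjusted p = 0.0205), and its part was not tested. The construct, selection and handling of the 2 control cultures cannot be told apart here.

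Of the 6 genes 3 passed with calcium in *shId1* cells (57.5% of all genes, 29.5% higher and 28.0% lower), 4 in *shScr* cells (60.7%, 30.6% higher and 30.1% lower), 3 in +dox cells (74.7%, 35.6% higher and 39.1% lower) and 4 in -dox cells (75.9%, 37.6% higher and 38.3% lower). Most genes measured differed between 24 h and 0 h in each culture, and the counts among the 6 lay near these shares. All 6 suprabasal markers rose with calcium in *shId1* and *shScr* cells, while 2 rose and 1 fell in +dox cells and 2 rose and 3 fell in -dox cells. The summed suprabasal level was 1327 to 2721 over the 12 libraries at 24 h, against 540 to 1027 over the 12 at 0 h, and its part in the results for *Notch3* and *Hes1* was not tested.

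Ordered by mean level over the 8 groups, *Notch3* was highest in +dox cells at 24 h (121 ± 8.69, SD, n = 3) and next in -dox cells at 24 h (97.6 ± 5.34), with no overlap between them, and lowest in -dox cells at 0 h (27.7 ± 6.39), which overlapped *shScr* cells at 0 h (29.3 ± 1.71). *Hes1* was highest in -dox cells at 24 h (66.0 ± 2.99) and lowest in +dox cells at 0 h (29.5 ± 1.46), and both stood clear of their neighbours. *Notch1* was lowest in *shId1* cells at 24 h (166 ± 44.0), clear of *shScr* cells at 0 h (279.7 ± 19.0), which were next, while the 6 highest groups each overlapped a neighbour. For *Jag1* and *Jag2* every group overlapped the next in the order, from 156 ± 60.6 in *shScr* cells at 0 h to 70.9 ± 8.02 in +dox cells at 24 h for *Jag1*, and from 241 ± 32.5 in *shScr* cells at 0 h to 113 ± 26.5 in *shScr* cells at 24 h for *Jag2*. *Notch2* ran from 112 ± 45.0 in *shScr* cells at 24 h, which overlapped +dox cells at 24 h (97.0 ± 3.02), to 66.3 ± 15.0 in *shId1* cells at 24 h, and the 4 lowest groups overlapped their neighbours.

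Of 81 other Notch pathway genes listed by role, 59 were measured and tested. With ID1 22 rose and 10 fell at 0 h (37.3% and 16.9%, beside 20.5% and 13.8% of all genes), and 7 rose and 7 fell at 24 h (11.9% each, beside 10.6% and 10.9% of all genes), with a median log2 fold change of 0.13 and -0.06, beside 0.00 and -0.01 over all genes. With silencing 2 rose and 4 fell at 0 h, beside 4.03% and 3.44% of all genes, and 2 rose and 8 fell at 24 h, beside 7.90% and 6.72% (medians 0.02 and -0.08, beside 0.00 and 0.01). Among the other receptor and ligands, *Notch4* was low, at 4.20, 4.68 and 3.98 in +dox cells at 0 h, against 0.90, 0.74 and 0.757 in -dox cells (1.88 ± 0.18, adjusted p = 1.67e-06), and it rose with calcium in all 4 cultures. The ligand *Dll1* fell with ID1 at 0 h (-0.85 ± 0.17, adjusted p = 0.00113) and with silencing at 24 h (-0.93 ± 0.22, adjusted p = 0.0139). *Dlk2*, a non-canonical ligand, rose with ID1 at 0 h (0.87 ± 0.15, adjusted p = 0.000488) and fell with silencing at 0 h (-1.11 ± 0.20, adjusted p = 0.00557).

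*Lfng*, a glycosyltransferase that modifies Notch receptors and alters their response to Jagged ligands, was 29.7, 38.6 and 32.6 in +dox cells at 0 h, against 8.82, 13.9 and 10.6 in -dox cells (1.57 ± 0.16, adjusted p = 2.93e-06). It was 18.1, 17.9 and 22.3 in *shId1* cells at 0 h, against 31.6, 43.0 and 38.9 in *shScr* cells (-0.94 ± 0.13, adjusted p = 0.00113). *Lfng* fell with calcium in all 4 cultures, by 0.91 to 2.23 on the log2 scale, as did the O-fucosyltransferase *Pofut1*, by 0.80 to 1.03. Of the 7 genes of ligand endocytosis, which ligands need for signalling, 6 rose with ID1 at 0 h (20.5% of all genes), led by the ubiquitin ligase genes *Neurl1a* (1.35 ± 0.15, adjusted p = 9.97e-06), *Mib2* (0.86 ± 0.13, adjusted p = 0.000126) and *Neurl1b* (0.68 ± 0.14, adjusted p = 0.00209), and these 3 were also those that rose at 24 h. *Neurl1a* fell with silencing at 0 h (-1.17 ± 0.23, adjusted p = 0.00899).

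Of 9 receptor cleavage genes 4 to 6 rose and 1 to 3 fell with calcium in each culture, beside 29.5 to 37.6% and 28.0 to 39.1% of all genes. Among those that rose was the gamma-secretase subunit gene *Psenen*, by 1.07 to 1.28 on the log2 scale in the 4 cultures. Of 13 genes of the nuclear complex and corepressors 8 fell and 3 rose with calcium in +dox cells and 7 fell and 4 rose in -dox cells, beside 39.1% lower and 35.6% higher over all genes in +dox cells and 38.3% and 37.6% in -dox cells. In these cultures the coactivator *Maml2* fell by 0.95 and 1.54. *Rbpj* fell in +dox (-0.75 ± 0.10, adjusted p = 8.07e-06), -dox (-0.65 ± 0.10, adjusted p = 2.46e-05) and *shScr* cells (-0.52 ± 0.11, adjusted p = 0.00169), and was -0.05 ± 0.11 in *shId1* cells (adjusted p = 0.733). No gene of this list passed with silencing at either time, beside 7.47% of all genes at 0 h and 14.6% at 24 h. None passed by the interaction of hairpin and time either, beside 7.51% of all genes. The *Rbpj* responses of *shId1* and *shScr* cells thus did not differ past the test. Of 9 genes for turnover and inhibition, *Numb*, an inhibitor of Notch, rose with calcium in *shScr* (0.74 ± 0.09, adjusted p = 1.75e-05), *shId1* (0.57 ± 0.09, adjusted p = 0.000166) and -dox cells (0.55 ± 0.09, adjusted p = 5.29e-05) but not past the test in +dox cells (0.13 ± 0.09, adjusted p = 0.203). At 24 h *Numb* fell with ID1 (-0.43 ± 0.09, adjusted p = 0.00387) and with silencing (-0.31 ± 0.09, adjusted p = 0.0349).

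Of 11 genes of the Hes and Hey family and *Nrarp*, 3 were measured. *Bhlhe40*, a repressor of the same superfamily, fell with ID1 at 0 h (-0.49 ± 0.15, adjusted p = 0.0200) and 24 h (to 0.499 of the -dox level, adjusted p = 0.000358) and rose with calcium in all 4 cultures, by 0.60 to 2.69 on the log2 scale. *Bhlhe41* fell with ID1 at 24 h (-1.15 ± 0.28, adjusted p = 0.00888). *Hes6* passed with calcium alone, in *shScr* (1.04 ± 0.18, adjusted p = 0.000349) and +dox cells (0.40 ± 0.13, adjusted p = 0.0127). Of 11 keratinocyte genes tied to Notch, 4 rose and 3 fell with ID1 at 0 h, beside 20.5% and 13.8% of all genes, with *Ccnd1*, a cyclin, at 1.49 ± 0.17, *Klf4*, a differentiation factor, at 1.08 ± 0.12 and *Ivl*, an envelope protein, at -1.24 ± 0.11.

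**Figure D5:**
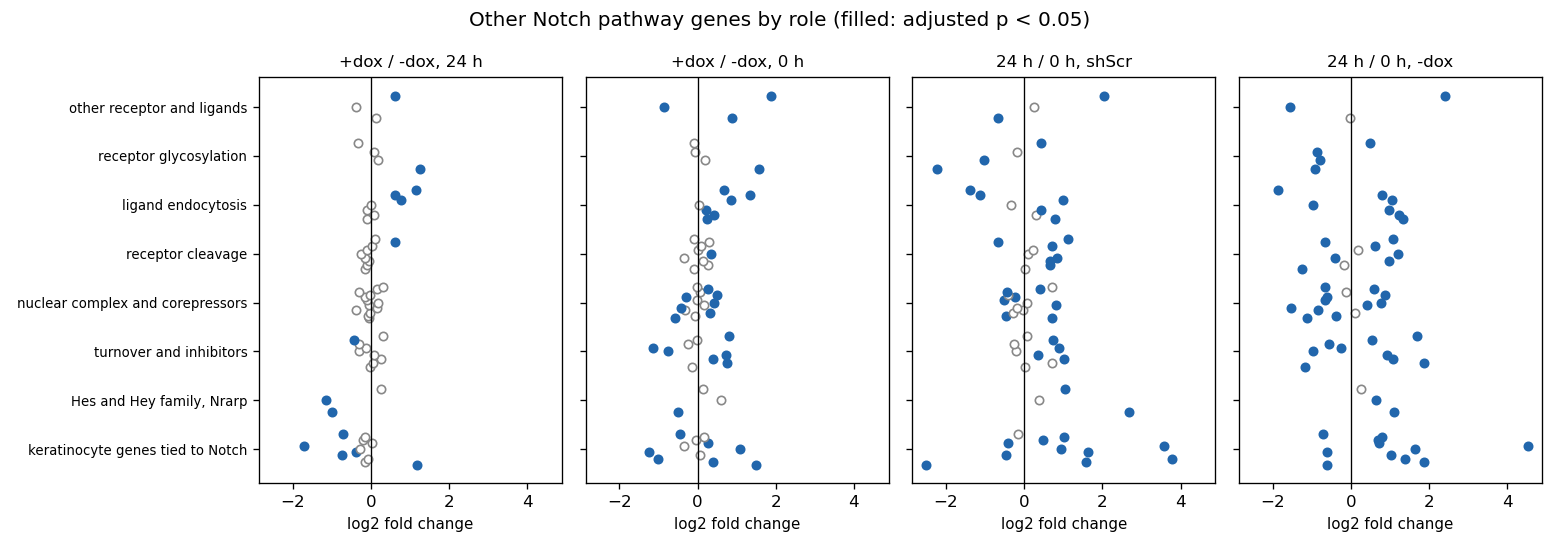
Each point is 1 of the 59 other Notch pathway genes, placed by role on the y axis and by log2 fold change on the x axis, for +dox over -dox at 24 h and 0 h and for 24 h over 0 h in *shScr* and -dox cells. Filled points passed at an adjusted p under 0.05. Of the 7 ligand endocytosis genes 6 are filled and above 0 for +dox at 0 h.

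Other genes whose pattern was most like that of each member were found by Pearson's r of log2 values over the 24 libraries. They share the libraries and the strong difference between times. For *Notch3* they were *Dock6* (r = 0.965), *Mpzl2* (0.962) and *Zfyve26* (0.961). For *Notch1* they were *Prrc2b* (0.939), *Zfp512b* (0.899) and *Zmiz1* (0.898), and for *Notch2* *Pcnx* (0.861), *Clip4* (0.841) and *Dgkq* (0.807). For *Jag2* they were *Tars2* (0.914), *Ccnd1* (0.910) and *Lfng* (0.901), and for *Jag1* *Las1l* (0.856), *Sema3e* (0.826) and *Rexo4* (0.819). For *Hes1* they were *Acat2* (0.923), *Fdps* (0.921) and *Pomp* (0.914). Among the 6 genes the closest pair was *Notch2* and *Notch3* (r = 0.714). *Hes1* stood at r = 0.641 with *Notch3*, 0.002 with *Notch1* and -0.56 with *Jag2*.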

How the data were processed

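Poly(A) RNA was sequenced as stranded libraries. Per the labels, the authors ran bcl2fastq 2.19.1.403 and used GRCm38, and the paper names TMM scaling in edgeR. The authors deposited a normalized signal per gene that equals counts (CPM) over a TMM-scaled library size. The control columns are named H2BGFP, the reporter of the control virus, and were assigned to *shScr* as the only name left. All values lay within 0.05 of a whole read. Reads recovered from the 18 libraries that allowed a check of the step entered an edgeR 4.0.16 quasi-likelihood test.

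The 12 libraries of each experiment were fitted with limma 3.58.1 (R 4.3.3; trend, robust) on log2(value + 0.5), for genes that reached 1 in 3 or more libraries (10790 and 10789 genes), with Benjamini-Hochberg adjustment over them. The fit was tested on simulated data. Exon length is the union of GENCODE M21 exons, and 10814 gene IDs matched. Same-numbered libraries of *shId1* and *shScr* correlated in their deviations from group means with r of 0.179 to 0.707 at 0 h and 0.298 to 0.709 at 24 h. Only those numbered 1 clearly paired. *shId1* replicate 2 deviated more with *shScr* replicate 3 (0.542 at 0 h and 0.648 at 24 h) than with replicate 2 (0.179 and 0.326). The blocked fit is given as an alternative beside the main fit, and numbers did not pair other groups. The members, lists and tests were chosen with earlier results of these data known. Named genes were the members, *Id1*, up to 3 passing genes of lowest adjusted p per list and comparison (not all are given), all Hes and Hey genes, and the 3 genes most like each member.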

Additional observations from a re-analysis of the deposited data

Results flagged for a closer look

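*Notch1* was higher in all *shId1* than in all *shScr* libraries at 0 h and lower in all of them at 24 h, opposite directions at the 2 times. The interaction was -1.17 on the log2 scale and missed the threshold (adjusted p = 0.0571), while it passed with the replicate block within each time (adjusted p = 0.000913). The difference between +dox and -dox cells changed with time for *Jag1* (interaction -0.70, adjusted p = 0.00573) and for *Jag2* (-0.58, adjusted p = 0.0464), beside 10.5% of all genes. The interaction of *Jag2* did not pass when any of 9 libraries was left out. In a fit of all 24 libraries neither ligand passed. The response to calcium was also compared between the control cultures of the 2 experiments, -dox minus *shScr*, after the data were seen. The difference passed for *Jag1* (1.55, adjusted p = 0.000401), *Jag2* (1.13, adjusted p = 0.000251) and *Hes1* (0.43, adjusted p = 0.0113), beside 52.8% of all genes. With such a share the difference cannot be read as particular to these genes.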

How the results depend on the processing

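All counts here are of the 6 genes, and the share of all genes that passed was not taken for most of these fits. With the replicate block within each time it was 21.8% for silencing at 0 h, 30.3% at 24 h and 20.5% for the interaction. In the main fit these shares were 7.47, 14.6 and 7.51%. A higher count in another fit therefore cannot be read as particular to the 6 genes. The edgeR fit had 2 or 3 libraries a group except 1 for *shId1* at 24 h and 1 for +dox at 0 h, so its values for these arms assume that the lone library varies like the other groups. With the replicate block shared over times, 1 passed with silencing at 0 h (0 without it), 3 at 24 h (1 without it) and 2 by its interaction with time (0 without it). With the replicate block within each time these were 2, 4 and 5. In the same order of comparisons array weights gave 2, 4 and 5, a fit of all 24 libraries 1, 3 and 4, edgeR 2, 3 and 3, and leaving out the libraries numbered 1 gave 1, 3 and 5. A fit of the compared groups only gave 1 at 0 h, and quantile normalization 2 at 24 h. For ID1 at 24 h (2 in the report) array weights gave 5, the compared groups only 4 and leaving out the libraries numbered 1 gave 1. For its interaction (2) median-ratio scaling gave 1, edgeR 1 and all 24 libraries 0. With calcium array weights gave 5 in *shId1* (3) and 5 in +dox cells (3), where median-ratio scaling also gave 5. A 2-fold limit left 0 for silencing at 24 h, for ID1 at 0 h, for ID1 at 24 h and for its interaction, and 1 in *shId1*, 2 in *shScr*, 1 in +dox and 1 in -dox cells with calcium. Leaving out 1 library at a time gave 0 to 2 for silencing at 24 h and 0 to 1 for its interaction, 1 to 3 for ID1 at 24 h, 3 to 5 for calcium in +dox cells and 1 to 2 for the ID1 interaction.

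Directions turned only in log2 fold changes that had not passed. *Hes1* with silencing at 24 h was -0.019 with quantile normalization, -0.14 with array weights and -0.096 without the libraries numbered 1 (-0.082 to 0.096 without 1 library). *Notch1* with ID1 at 0 h was 0.14 with array weights and 0.080 without the libraries numbered 1 (-0.17 to 0.081). *Notch1* with calcium was -0.15 with array weights, -0.16 with edgeR and -0.20 without the libraries numbered 1 in *shScr* cells (-0.15 to 0.35), and with quantile normalization -0.057 in +dox and -0.20 in -dox cells. *Jag1* with calcium in +dox cells was 0.0046 with array weights and 0.077 without the libraries numbered 1 (-0.13 to 0.032). *Jag2* in -dox cells was -0.090 with quantile normalization and -0.057 without the libraries numbered 1 (-0.072 to 0.15). The *Hes1* interaction with silencing was -0.055 with array weights, and that of *Notch1* with ID1 -0.023 with array weights and -0.018 without the libraries numbered 1 (-0.021 to 0.24). *Notch2* ran from -0.11 to 0.016 with silencing at 0 h and from -0.19 to 0.14 with calcium in *shId1* cells without 1 library. Between the control cultures *Notch1* was 0.0068 with median-ratio scaling and 0.43 without the libraries numbered 1 (-0.22 to 0.28), and *Notch2* 0.047 (-0.45 to 0.035). The cause was not tested. Over all genes edgeR called 1730 (limma 806) for silencing at 0 h, 999 (1577) at 24 h, 1566 (3701) for ID1 at 0 h and 424 (1128) for its interaction, and all of these but the first involve an arm of 1 library in edgeR.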

Other observations

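Within groups, after each group's mean was taken from its 3 libraries, the 3 receptors moved together over the 24 libraries, with r of 0.920 between *Notch1* and *Notch3*, 0.893 between *Notch1* and *Notch2* and 0.830 between *Notch2* and *Notch3*. *shScr* replicate 1 at 24 h stood far above replicates 2 and 3 for all 3 (*Notch1* 483 against 239.8 and 263, *Notch2* 163 against 83.2 and 87.9, *Notch3* 108 against 57.2 and 67.7). Its part in these r values was not tested. *Jag2* deviated with *Id1* (r = 0.893), while r was -0.16 between *Jag1* and *Id1* and 0.0786 between the 2 Jagged ligands. The genes nearest in these deviations were *Plxna1* (r = 0.978), *Hectd4* (0.967) and *Prrc2b* (0.964) for *Notch1*, *Mlxip* (0.951), *Chd8* (0.932) and *Med14* (0.932) for *Notch2*, *Tbc1d2b* (0.920), *Celsr2* (0.914) and *Tanc1* (0.905) for *Notch3*, *Cyp3a13* (0.941), *Wwtr1* (0.927) and *Atg9b* (0.917) for *Jag1*, *Nle1* (0.931), *Erf* (0.928) and *Fscn1* (0.894) for *Jag2* and *Txnl1* (0.788), *Ier5* (0.739) and *Zfp623* (0.737) for *Hes1*. The points share libraries, and 8 degrees of freedom go to the group means, so these values describe the libraries and carry no p.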
